A study of Mus musculus with 18 samples.

Results

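The 6 macrophage samples of the COM group fell into 2 sets of 3, COM-4 to COM-6 and COM-1 to COM-3, and the difference between these sets was described across 10447 of the 25926 genes of the expression table. The sets were chosen from the correlations between these same samples, and the genes were those with a mean of at least 1 FPKM (mapped fragments scaled to gene length and to the total of each sample) over the 6 samples. The difference between the sets is therefore given as values with no test, and it supports nothing by itself. Tests were made only in the other 12 samples of the series of 18.

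Macrophages derived from bone marrow (BMDMs), of the strain C57BL/6, were grown for 7 days with 50 ng/mL M-CSF, the growth factor that drives macrophage differentiation, and unattached cells were removed at 5 days. They were then cocultured, across a Transwell membrane of 0.4 μm pore size, with tubular epithelial cells (TECs) from kidneys of wild-type mice in the well underneath. NC samples (6) were BMDMs given PBS over TECs without crystals. COM samples (6) were BMDMs likewise given PBS, over TECs that had been exposed for 24 h to 100 μg/mL calcium oxalate monohydrate crystals, the main mineral of kidney stones. COM+Met samples (6) had TECs exposed in the same way and BMDMs given, for 24 h, 5.0 mM of an agent labelled Met, which the labels do not spell out. The labels give all 6 COM samples the same strain, cell type and treatment, and nothing in them separates the first 3 from the last 3. They also do not say whether replicates came from separate mice or cultures, so that the p-values below measure the spread between samples, which may be technical.

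Macrophages that sense microbial products or damaged cells secrete type I interferon, which acts back on them through STAT2 and IRF9, among other factors, and switches on a large antiviral programme. IFN-γ, which is made mainly by lymphocytes, induces guanylate-binding proteins, immunity-related GTPases and inducible nitric oxide synthase. Sterol synthesis in the same cells is driven by the SREBP transcription factors, which are held inactive when cholesterol or its oxidised forms are plentiful.

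Pearson's r between samples, given as a description over log2(FPKM + 1), was 0.992 to 0.993 within COM-1 to COM-3 and 0.995 between COM-4 and COM-5, and 0.943 to 0.946 between these 2 blocks. COM-6 stood apart from all. Its r was 0.925 to 0.930 with COM-4 and COM-5, and 0.876 to 0.881 with COM-1 to COM-3. COM-4 and COM-5 correlated with the COM+Met samples at 0.975 to 0.980, above the 0.942 to 0.947 of COM-1 to COM-3, whereas COM-6 lay below both, at 0.899 to 0.911. The 6 COM+Met samples correlated with each other at 0.989 to 0.995 and showed no such blocks.

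**Figure D1:**
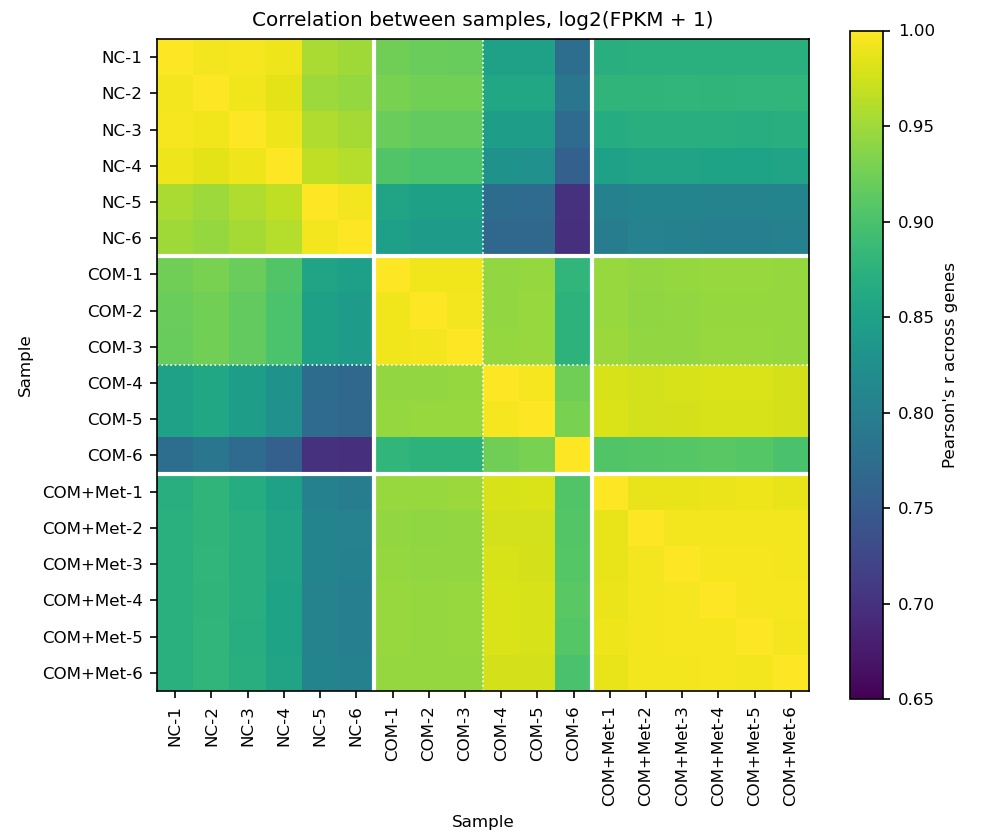
Pearson's r of log2(FPKM + 1) between all 18 samples, in the order of the labels, with solid lines between NC, COM and COM+Met and a dotted line between COM-3 and COM-4. COM-1 to COM-3 form a block (0.992 to 0.993), COM-4 and COM-5 another (0.995), and COM-6 lies at 0.876 to 0.930 from the other COM samples.

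COM-6 had a GC bias, and the main counts and the medians of the gene lists are therefore given also without it. The deviation of a gene in COM-6 from the mean of the 6 samples correlated with the GC content of its transcripts at r = -0.65, against 0.21 to 0.28 in the other 5 samples. The median deviation in COM-6 went from 0.306 in the tenth of genes with the lowest GC content (median 39.5%) to -0.934 in the tenth with the highest (median 59.1%). Genes lower in COM-4 to COM-6 had a median GC content of 53.7%, those higher 46.2%, and all genes 49.4%. The sum of FPKM was 380731 in COM-6 and 421933 to 449186 in the other COM samples. FPKM do not give the read depth, which is unknown.

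**Figure D2:**
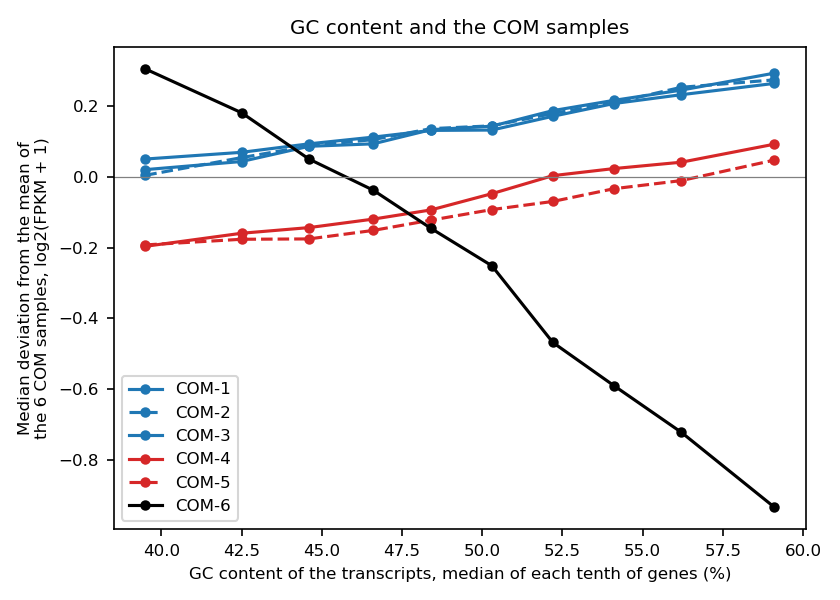
Median deviation of each COM sample from the mean of the 6 (log2(FPKM + 1)) in 10 bins of genes ordered by the GC content of their transcripts (%). COM-6 (black) descends from 0.306 to -0.934 while the other 5 samples go slightly upward with GC content.

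In COM-4 to COM-6, 292 genes were at least 2-fold higher than in COM-1 to COM-3 with no overlap between the 3 values and the other 3 (2.80% of the genes described, a share that the choice of the sets fixed), and 693 were at least 2-fold lower (6.63%). Without overlap at any size were 1010 genes higher (9.67%) and 4645 lower (44.5%). Of the 292 and 693 genes, 264 and 395 were also at least 2-fold apart, without overlap, when COM-6 was left out (2.53% and 3.78% of the genes described). The counts of gene lists below are to be read against these shares of all genes. The differences upward were the larger, with 96 genes at a log2 difference of at least 2 and 30 of at least 3, against 57 and 7 downward. For scale, 32 genes differed at least 2-fold between COM-4 and COM-5, and 41 to 50 between any pair of COM-1 to COM-3. Against the mean of COM-4 and COM-5, COM-6 had 208 genes at least 2-fold higher and 1313 lower. It was nearer to them than to COM-1 to COM-3 in 274 of the 292 and 686 of the 693 genes. The choice of these genes, which required COM-6 to lie beyond COM-1 to COM-3, largely fixed this.

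The whole distribution was shifted, with a median log2 difference of -0.28 over all genes (-0.22 without COM-6). Scaling by median-of-ratios size factors moved this median to -0.0059, and 439 genes were then 2-fold higher and 311 lower. With quantile normalisation 397 were higher and 326 lower. The larger number of lower genes thus depended on the scaling, and medians of gene lists are given below relative to the median of all genes. H2-K1, a classical MHC class I heavy chain, lay just inside the 2-fold limit at a log2 difference of 1.0030, and Trim30d just outside at 0.9994. Downward, Cks1b lay just inside at -1.0012 and Ets1 just outside. The mean of Trim68 lay just inside the limit of 1 FPKM and that of Pgf just outside, at 0.99934.

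Genes are ranked here by the difference of log2(FPKM + 1), which gives less weight to low genes than the ratio of means. On that scale the largest difference among genes that could be named was that of Nos2 (ENSMUSG00000020826, chr11:78920787-78960254, GRCm38), which encodes inducible nitric oxide synthase. Nos2 measured 4.67, 5.20 and 4.42 FPKM in the first 3 samples and 259.9, 201 and 170.2 FPKM in the last 3. The means were 4.77 ± 0.398 and 210.3 ± 45.6 FPKM (SD, n = 3 each), 44.1-fold apart, a ratio that was higher still for Ccl7 (57-fold), a gene of lower level. In NC it lay between 0.0442 and 3.55 FPKM, and in COM+Met between 67.1 and 89.1 FPKM. For this gene COM-1 to COM-3 therefore lay above every NC sample, though nearer to NC than to COM+Met, and COM-4 to COM-6 above every COM+Met sample. In the 12 samples outside COM, Nos2 was higher in COM+Met than in NC by 5.01 on the log2 scale (SE 0.33, limma adjusted p = 1.9e-08).

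Monocyte-attracting chemokines followed. Ccl2, the main ligand of CCR2, stood at 8.64, 5.07 and 5.36 FPKM in COM-1 to COM-3 and 287, 237 and 166 FPKM in COM-4 to COM-6. NC samples lay between 3.78 and 27.2 FPKM, so that COM-1 to COM-3 were within the range of NC. Ccl7, another CCR2 ligand, measured 0.809, 0.0771 and 0.426 against 19.3, 19.7 and 35.8 FPKM, and its COM+Met samples, at 6.25 to 8.02 FPKM, lay within the range of NC (0.617 to 8.25 FPKM). Cxcl10, an interferon-induced ligand of CXCR3, stood at 14.9, 17.6 and 15.3 FPKM in COM-1 to COM-3 and 544, 481 and 498 FPKM in COM-4 to COM-6. Here COM-1 to COM-3 lay inside the range of NC (0.469 to 24.2 FPKM) and COM+Met between the sets, at 191 to 256 FPKM.

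**Figure D3:**
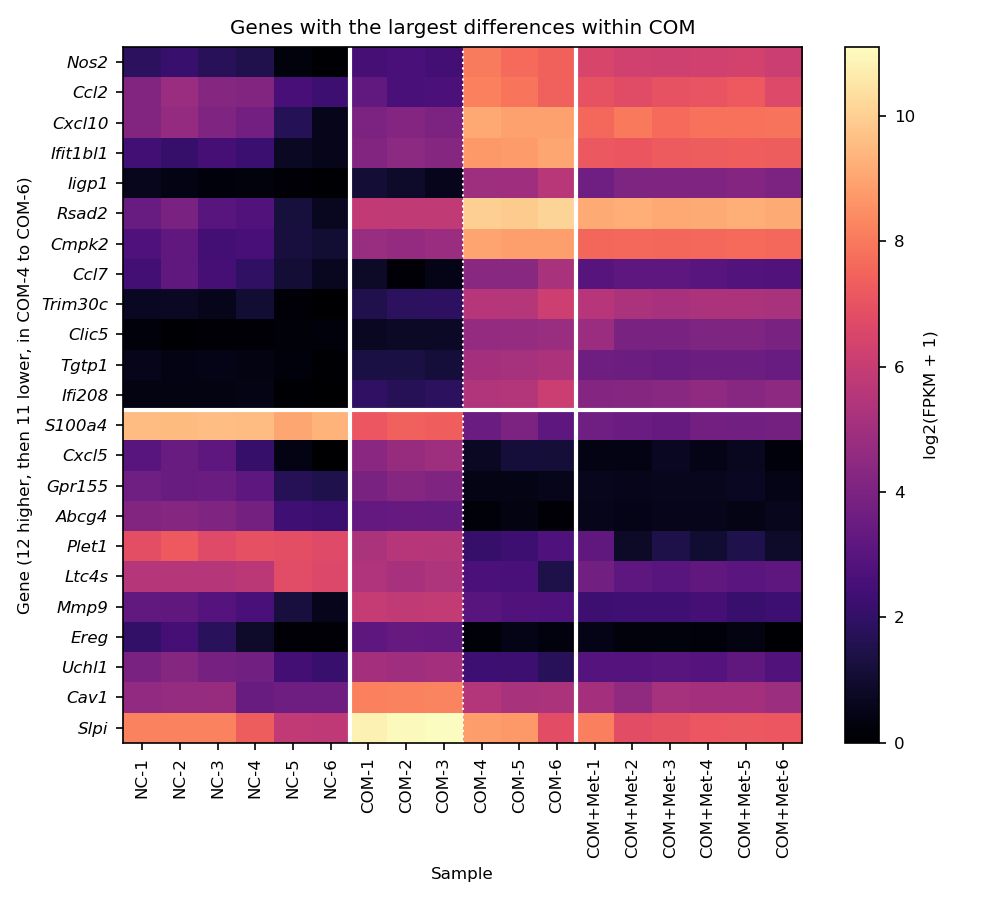
log2(FPKM + 1) of the 12 genes with the largest difference upward and 11 of the 12 with the largest downward in COM-4 to COM-6, in each of the 18 samples, with a dotted line between COM-3 and COM-4. In every one of these genes COM-4, COM-5 and COM-6 lie on the same side of COM-1 to COM-3, as the choice of the genes requires, and the 6 COM+Met columns resemble COM-4 to COM-6 more than COM-1 to COM-3.

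Antiviral interferon-stimulated genes were the list with the most members higher. Of 38 with at least 1 FPKM, 27 were 2-fold higher without overlap and 0 lower (24 and 0 also without COM-6), with a median of 1.79 relative to all genes (1.71 without COM-6). Rsad2, which encodes the antiviral enzyme viperin, stood at 57.5, 55.6 and 55.5 FPKM in COM-1 to COM-3 and 1011, 952 and 1099 FPKM in COM-4 to COM-6. Cmpk2, its neighbour in the genome and a nucleotide kinase, measured 26.4, 24.6 and 27.3 against 512, 463 and 469 FPKM. For both, COM-1 to COM-3 were above all NC samples (up to 14.4 and 8.47 FPKM) and COM+Met lay between the sets.

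Further members were Ifi44, Mx1 and Ifi205. Mx1, a dynamin-like GTPase that blocks influenza virus, stood at 26.3, 27.5 and 25.5 FPKM in COM-1 to COM-3 and 239, 261 and 212 FPKM in COM-4 to COM-6. The corresponding values of Ifi44 were 9.20, 8.75 and 9.16 and 77.2, 84.2 and 125 FPKM. Ifi205, of the family of DNA-binding interferon-inducible p200 proteins, measured 66.7, 64 and 69.1 against 420.1, 426 and 913 FPKM, with COM-6 the highest. Ifit1bl1, of the Ifit family of RNA-binding proteins, measured 16.7, 20.6 and 18 against 423, 435 and 522 FPKM. Trim30c had 1.94, 2.61 and 2.64 against 46, 45.1 and 71.3 FPKM and Clic5, a chloride channel family gene, 0.620, 0.741 and 0.753 against 24.5, 25.3 and 26.4 FPKM. In none of these genes did the sets come near each other, which the choice of the named genes by the size of their difference largely fixed. Ifi200, Ifit and Trim30 genes resemble their relatives closely, and how fragments matching several copies were counted is not given in the sources used here, so single members are uncertain.

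All 17 IFN-γ-induced GTPases were 2-fold higher without overlap, also without COM-6, with a median of 2.76 relative to all genes (2.61 without COM-6). These proteins coat and break the vacuoles of intracellular microbes. Iigp1, an immunity-related GTPase, stood at 1.17, 0.826 and 0.517 FPKM in COM-1 to COM-3 and 29, 29.8 and 48.2 FPKM in COM-4 to COM-6. Tgtp1 and its near copy Tgtp2 measured 1.54, 1.56 and 1.27 against 32.6, 33.7 and 38.6 FPKM and 4.83, 4.33 and 4.30 against 73.5, 75.3 and 78.4 FPKM. The guanylate-binding protein Gbp4 measured 3.56, 3.80 and 3.83 against 55.6, 53.4 and 65.7 FPKM. Gbp11 was listed at 0, 0.0589 and 0 FPKM in COM-1 to COM-3 and at 8.12, 9.42 and 11.7 FPKM in COM-4 to COM-6. NC samples of these 5 genes reached at most 1.01 FPKM, and those of COM+Met lay between 24.1 and 37.8 FPKM for Gbp4.

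Of the 292 higher genes, 51 lay in 7 clusters of at least 5 genes of the set with gaps of up to 500 kb. The span of a cluster runs from its first to its last member, so this rule partly fixed the shares given here. In the Ifi200 cluster (chr1:173468485-174031810) all 11 genes described were in the higher set, among them Ifi208 with 2.83, 2.27 and 2.54 against 41.9, 43.9 and 70.1 FPKM. In the Gbp cluster (chr5:105014150-105613018) 8 of 9 genes were, in the Irgm and Tgtp cluster (chr11:48861968-49096974) 8 of 10, and in the Ifit cluster (chr19:34473778-34650009) 6 of 8. The lowest share was 6 of 15, in a cluster of Slfn and Ccl genes (chr11:82978390-83664683).

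The promoters of these genes, taken from RefSeq on GRCm38.p6 as the 250 bases before and 50 after the start, were searched on both strands for the core letters of the interferon-stimulated response element (ISRE), GAAANNGAAA, to which IRF proteins bind. Stretches that hold it are shown for 5 of the 12 genes with the largest difference upward and for further GTPases, from the coding strand of each gene, with the letters in capitals (in reverse they read TTTCNNTTTC). Of the other 7 genes, Cmpk2, Trim30c and Clic5 held no match, and Nos2, Ccl2, Iigp1 and Ccl7 were not in the promoter table.
Cxcl10, chr5:92349053-92349139, minus strand: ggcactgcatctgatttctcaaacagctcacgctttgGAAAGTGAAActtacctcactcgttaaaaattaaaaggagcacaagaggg
Rsad2, chr12:26456523-26456612, minus strand: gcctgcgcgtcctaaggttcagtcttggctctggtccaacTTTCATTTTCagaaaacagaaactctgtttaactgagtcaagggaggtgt
Ifit1bl1, chr19:34602023-34602112, minus strand: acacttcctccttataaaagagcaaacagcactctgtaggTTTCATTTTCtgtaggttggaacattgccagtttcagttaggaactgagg
Tgtp1, chr11:48992274-48992363, minus strand: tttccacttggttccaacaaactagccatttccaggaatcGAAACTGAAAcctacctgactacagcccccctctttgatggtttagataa
Tgtp2, chr11:49064233-49064322, minus strand: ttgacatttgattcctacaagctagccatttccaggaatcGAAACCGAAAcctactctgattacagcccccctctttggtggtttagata
Ifi208, chr1:173673567-173673656, plus strand: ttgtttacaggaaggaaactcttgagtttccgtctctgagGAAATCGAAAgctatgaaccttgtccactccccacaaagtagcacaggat
Gbp2, chr3:142620564-142620653, plus strand: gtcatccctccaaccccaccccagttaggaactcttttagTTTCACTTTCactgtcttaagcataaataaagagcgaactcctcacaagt
Irgm1, chr11:48871421-48871490, minus strand: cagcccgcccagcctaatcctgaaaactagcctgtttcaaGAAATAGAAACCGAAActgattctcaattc
Irgm1 has overlapping matches in tandem. A promoter was at hand for 189 of the 292 higher genes, and 52 of these (27.5%) held the letters, against 13 of 520 lower genes (2.50%), 272 of 8000 genes described (3.40%) and 943 of all 27025 promoters (3.49%). Without COM-6 the share was 52 of 173 (30.1%). Among the lists it was 16 of 28 antiviral genes (57.1%) and 9 of 9 GTPases with a promoter in the table.

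The letters of the gamma-activated site, TTCNNNGAA, were in 23 of the 189 promoters of higher genes (12.2%), in 25 of 520 of lower genes (4.81%), in 6.93% of all genes described and in 8.47% of all promoters. The promoters of 8 higher genes held both motifs, overlapping in 1. AP-1 letters, TGANTCA, were in 34 (18%) of the higher, 41 (7.88%) of the lower, 5.11% of all described and 7.93% of all promoters. NF-κB letters, GGGNNNTTCC, were in 28 (14.8%), 35 (6.73%), 6.33% and 5.52%. Among the 173 promoters of genes higher also without COM-6, the 3 motifs were in 21 (12.1%), 32 (18.5%) and 24 (13.9%). Such matches describe the letters of a window and not binding.

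Of 22 transcription factors, receptors and regulators of the interferon pathway described, 3 were 2-fold higher without overlap and 0 lower, with and without COM-6. For comparison, 2.80% of all genes were higher and 6.63% lower. Among the 3, Stat2 stood at 52.2, 51.3 and 50.5 FPKM in COM-1 to COM-3 and 131, 121 and 112 FPKM in COM-4 to COM-6. Batf2, a partner of IRF1 in macrophages, measured 4.98, 4.56 and 4.79 against 29.4, 34.4 and 16.8 FPKM. The interferon genes of the list, Ifnb1, Ifna4 and Ifng, were below 1 FPKM in COM and were not described. Of 38 antiviral genes with at least 1 FPKM over NC and COM+Met, 38 were called higher in COM+Met than in NC, as were 17 of 17 GTPases (limma, against 5.66% of 10786 genes tested). Members below 1 FPKM in every NC sample, such as Iigp1, Tgtp1, Gbp4 and Gbp11, passed the filter only through COM+Met. They could not be called lower, so the filter partly fixed these counts.

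MHC genes differed by class (for comparison, 2.80% of all genes were higher and 6.63% lower). Of 15 genes of class I presentation, 5 were 2-fold higher without overlap and 0 lower, also without COM-6 (median relative to all genes 1.19, and 1.42 without COM-6). B2m, the class I light chain, stood at 3700.5, 3459.9 and 3688 FPKM in COM-1 to COM-3 and 8186, 8024 and 9861 FPKM in COM-4 to COM-6. H2-Q7 measured 32.6, 28.2 and 31.9 against 479, 417 and 131 FPKM, where COM-6 was the lowest of its set, and H2-Q genes resemble each other closely. Of 10 genes of class II presentation, which displays peptides to CD4+ T cells, 4 were 2-fold lower and 0 higher, also without COM-6 (median -0.62, and -0.50 without COM-6).

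The class II chain H2-Aa stood at 305, 384 and 381 FPKM in COM-1 to COM-3 and 100.1, 102 and 112 FPKM in COM-4 to COM-6. H2-Eb1 measured 200.2, 266 and 248 against 72.9, 70.0 and 55.5 FPKM, and Cd74, the invariant chain, 1004, 1226 and 1238 against 328, 368 and 418 FPKM. COM+Met was level with COM-4 to COM-6, at 102 to 125 FPKM for H2-Aa. NC ran from 76.7 to 767 FPKM, with NC-5 and NC-6 lowest, so that COM-1 to COM-3 lay inside the range of NC.

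Among 21 chemokine ligands, 8 were 2-fold higher (Ccl2, Ccl3, Ccl4, Ccl7, Ccl12, Cxcl9, Cxcl10 and Cxcl11) and 7 lower (Ccl9, Ccl22, Cxcl1, Cxcl3, Cxcl5, Pf4 and Ppbp). Without COM-6 the counts were 8 and 5. Over all genes the shares were 2.80% higher and 6.63% lower. The lower chemokine ligands include neutrophil attractants that act on CXCR2. Cxcl5 stood at 19.9, 25.5 and 28.9 FPKM in COM-1 to COM-3 and 0.674, 1.32 and 1.20 FPKM in COM-4 to COM-6. In its cluster (chr5:90759360-91093646) 6 of 8 genes described were lower, including Ereg, which encodes the growth factor epiregulin. Ereg measured 7.82, 9.51 and 9.06 against 0.128, 0.407 and 0.241 FPKM. By the rule for clusters given above the lower set had 21 clusters, in which this share went down to 6 of 37.

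Of 25 inflammatory cytokine and mediator genes, 9 were 2-fold higher, against 2.80% of all genes, and 0 lower (8 and 0 also without COM-6). Tnfsf10, the death ligand TRAIL, stood at 0.817, 0.822 and 0.700 FPKM in COM-1 to COM-3 and 10.1, 9.81 and 13.6 FPKM in COM-4 to COM-6. Il15, a cytokine for NK and memory T cells, measured 4.91, 3.71 and 6.04 against 24.1, 23.9 and 23.2 FPKM, and Il1a 142, 154 and 142 against 421, 389 and 666 FPKM. Il1b did not follow. It stood at 455, 609 and 592 FPKM in COM-1 to COM-3 and 573, 524 and 455 FPKM in COM-4 to COM-6, overlapping, and COM+Met lay below both at 158 to 184 FPKM.

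Of 8 genes that the study examines in this system, Nos2, described above, differed most, and the other 7 did not reach a 2-fold difference. Acod1, which makes itaconate, stood at 1431, 1514 and 1479 FPKM in COM-1 to COM-3 and 1305, 1317 and 1356 FPKM in COM-4 to COM-6, a log2 difference of -0.15 (-0.17 without COM-6), close to the median of all genes. Sirt1 measured 3.61, 2.69 and 4.45 against 3.83, 4.67 and 7.34 FPKM, and the values overlapped. For Sdha, a subunit of succinate dehydrogenase, they were 64.9, 62.8 and 65.4 against 54.3, 51.2 and 45.7 FPKM, and for Hif1a 52.7, 48.5 and 49.6 against 36.7, 36.2 and 64 FPKM. Arg1 was low in all, at 1.30, 0.501 and 0.631 against 0.762, 0.349 and 0.483 FPKM. For Tlr4, the lipopolysaccharide receptor, COM-6 alone was high, with 14.2, 14.7 and 21.9 FPKM in COM-4 to COM-6 against 15.1, 14.8 and 14.8 FPKM.

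**Figure D4:**
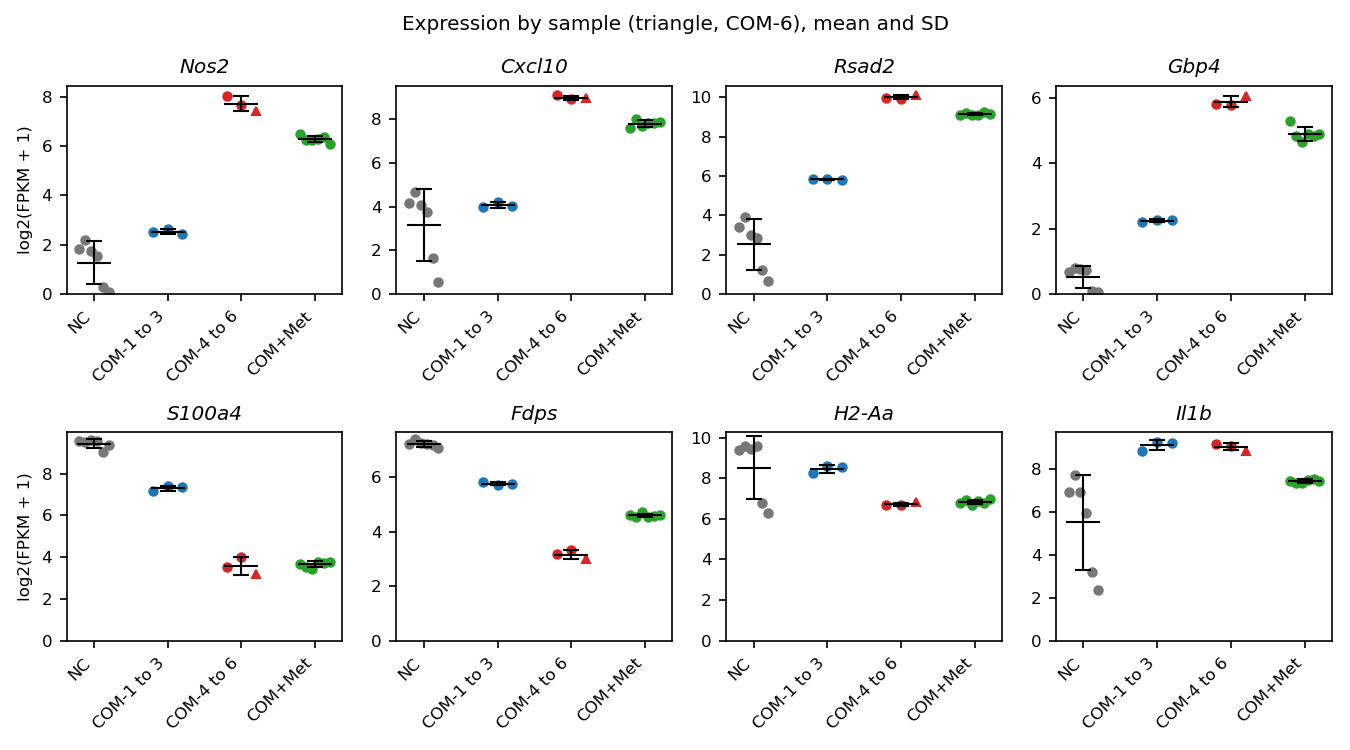
log2(FPKM + 1) of 8 genes in each sample of NC, COM-1 to COM-3, COM-4 to COM-6 (triangle, COM-6) and COM+Met, with the mean and SD of each set as lines. Nos2, Cxcl10, Rsad2 and Gbp4 are higher in COM-4 to COM-6 than in any other sample, S100a4, Fdps and H2-Aa are lower than in COM-1 to COM-3, and Il1b overlaps.

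Cholesterol and fatty acid synthesis was the group with the most members lower. Of 23 genes, 18 were 2-fold lower without overlap and 0 higher (17 and 0 also without COM-6), and the median was -1.20 relative to all genes with and without COM-6. Fdps, farnesyl diphosphate synthase, stood at 56.4, 51.7 and 52.3 FPKM in COM-1 to COM-3 and 7.95, 9.02 and 6.95 FPKM in COM-4 to COM-6. Sqle, squalene epoxidase, measured 18.2, 16.4 and 19 against 3.25, 4.17 and 4.17 FPKM. The fatty acid desaturase Scd1 measured 14, 12.8 and 12.1 against 0.365, 0.806 and 2.31 FPKM and Scd2 175, 162 and 162 against 38.7, 44.1 and 38.8 FPKM. Every NC sample was above COM-1 to COM-3 for Fdps (135 to 171 FPKM), and COM+Met lay between the sets (22.4 to 25.2 FPKM). For Scd2 NC lay below COM-1 to COM-3. In the samples outside COM, 19 of the 23 genes were called lower in COM+Met than in NC (limma, against 13.6% of genes tested).

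Of 14 promoters of this list in the table, 12 held the letters CCAAT on either strand, a box to which NF-Y binds (85.7%, against 38.6% of genes described and 37.9% of all promoters), and 0 held the sterol response letters ATCACNCCAC, which were in 0.1% of promoters of genes described and 0.244% of all. Stretches of 3 members are shown as examples of this arrangement, with the letters in capitals.
Idi1, chr13:8885521-8885605, plus strand: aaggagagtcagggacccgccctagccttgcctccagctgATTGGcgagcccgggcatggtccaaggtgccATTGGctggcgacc
Cyp51, chr5:4104698-4104766, minus strand: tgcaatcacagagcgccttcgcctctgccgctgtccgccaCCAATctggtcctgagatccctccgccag
Lss, chr10:76531503-76531587, plus strand: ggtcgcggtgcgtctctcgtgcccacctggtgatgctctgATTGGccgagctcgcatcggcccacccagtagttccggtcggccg
Idi1, an isomerase, Cyp51, a demethylase, and Lss, the lanosterol synthase, were all in the lower set, at log2 differences of -1.47, -1.59 and -1.54.

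On the scale of log2(FPKM + 1), the largest difference downward among genes that could be named was that of S100a4, a calcium-binding protein of motile cells, with 141, 168 and 160.4 FPKM in COM-1 to COM-3 and 10.5, 15.1 and 8.15 FPKM in COM-4 to COM-6. Means were 156 ± 14.2 and 11.2 ± 3.55 FPKM (SD, n = 3 each), 13.9-fold apart, while genes of lower level had higher ratios, such as 49-fold for Abcg4. NC lay between 528 and 768 FPKM and COM+Met between 9.68 and 12.8 FPKM, level with COM-4 to COM-6. The gene fell in COM+Met against NC by 5.79 on the log2 scale (limma adjusted p = 1.2e-13). Around it, all 5 S100 genes described in chr3:90514435-90695721 were lower, a span that the rule for clusters given above drew from the lower genes. Among them, S100a8 measured 298, 276 and 301 against 51.9, 56.4 and 28.4 FPKM, and S100a9 12.2, 17.8 and 14.1 against 1.34, 2.38 and 2.79 FPKM.

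Some of the lower genes were at their highest in COM-1 to COM-3. Mmp9, a gelatinase, measured 61.1, 56.3 and 59.2 FPKM there, 7.01, 6.22 and 5.80 FPKM in COM-4 to COM-6, 0.498 to 8.64 FPKM in NC and 3.62 to 4.66 FPKM in COM+Met. Slpi, a protease inhibitor, measured 1794, 2017 and 2186 against 445, 425 and 113 FPKM, with NC at most 299 FPKM. Cav1, the caveolae protein, measured 286, 299.7 and 305 against 43.5, 36.7 and 37.2 FPKM, with NC at most 25.5 FPKM. Uchl1, a ubiquitin hydrolase, measured 33.4, 30.3 and 33.2 against 3.93, 3.88 and 2.35 FPKM. For all 4 genes COM-1 to COM-3 lay above every other sample of the series. Mmp9, Slpi and Uchl1 did not differ detectably between COM+Met and NC (limma adjusted p = 0.986, 0.941 and 0.259).

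Other genes of the 12 largest downward differed in where NC lay. Plet1, a surface protein, stood at 37.9, 46 and 45.2 FPKM in COM-1 to COM-3, 3.24, 3.85 and 5.68 FPKM in COM-4 to COM-6 and 102 to 147 FPKM in NC. Ltc4s, the leukotriene C4 synthase, measured 40.8, 35.1 and 39.3 against 5.43, 4.96 and 1.73 FPKM, with NC again above, at 44.4 to 109 FPKM. The sterol exporter Abcg4 measured 8.81, 9.60 and 9.29 against 0.157, 0.291 and 0.117 FPKM, the former inside the range of NC (3.67 to 18.1 FPKM). Gpr155, a lysosomal cholesterol sensor, measured 13.9, 18 and 16.2 against 0.366, 0.377 and 0.454 FPKM, and here COM-1 to COM-3 lay above NC (at most 11.6 FPKM), as they did for Cxcl5 and Ereg. COM+Met samples of Gpr155 were at 0.430 to 0.617 FPKM, level with COM-4 to COM-6.

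Of 13 genes of alternative activation and scavenger receptors, 6 were 2-fold lower, against 6.63% of all genes, and 0 higher, also without COM-6. Marco, a scavenger receptor for particles, stood at 559, 603 and 597 FPKM in COM-1 to COM-3 and 94.2, 118 and 102 FPKM in COM-4 to COM-6. Clec7a, the β-glucan receptor dectin-1, measured 638, 566 and 525 against 148, 143 and 220.3 FPKM, Scarb1 51.4, 52.1 and 53.6 against 18.4, 18.4 and 8.65 FPKM, and Mrc1, the mannose receptor, 4.89, 5.18 and 4.95 against 1.61, 1.17 and 1.75 FPKM. Osteoclast and cell fusion genes had 4 of 8 members lower, against the same share of all genes, and 0 higher (3 and 0 also without COM-6). Acp5, the tartrate-resistant phosphatase, measured 254, 279.8 and 288 against 68, 68.4 and 27.9 FPKM and the fusion receptor gene Dcstamp 15.3, 20.3 and 17.2 against 3.25, 4.26 and 2.43 FPKM.

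Metabolic genes were mixed. Of 29 glycolysis and HIF genes, 5 were 2-fold higher, against 2.80% of all genes, and 2 lower, near the 6.63% of all genes. Both counts held also without COM-6. The median relative to all genes was 0.46 (0.76 without COM-6). Vegfa, the endothelial growth factor, stood at 4.57, 3.78 and 3.32 FPKM in COM-1 to COM-3 and 25, 18 and 17.9 FPKM in COM-4 to COM-6, P4ha1, a collagen prolyl hydroxylase, 20.4, 18.8 and 18.9 against 75.4, 62 and 70.4 FPKM, and Egln3, a HIF prolyl hydroxylase, 1.85, 1.98 and 1.36 against 15.3, 9.29 and 9.14 FPKM. Aldoc, an aldolase, went the other way, with 20.3, 20.7 and 19.3 against 4.58, 4.63 and 1.92 FPKM. Of 21 TCA cycle genes, Acod1 included, 2 were 2-fold lower (1 also without COM-6), near the 6.63% of all genes. Idh1 was among them, with 70.1, 68.3 and 68.8 against 20.6, 22.1 and 26.9 FPKM. Without overlap at any size, 19 of the 21 were lower, against 44.5% of all genes. Their median relative to all genes was -0.33 (-0.22 without COM-6).

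Ribosomal protein genes had their lowest median within COM in COM-6. Of 36 cytosolic ribosomal protein genes 34 were lower without overlap at any size, against 44.5% of all genes. Of the 36, 13 were 2-fold lower, against 6.63%, and 2 of these also without COM-6, against 3.78%. The median log2 difference of the 36 was -0.94 (-0.49 without COM-6), which is -0.66 relative to all genes (-0.27 without COM-6). For Rps14 COM-4, COM-5 and COM-6 measured 154, 151 and 15.6 FPKM against 219, 240.4 and 259 FPKM, so that COM-6 stood far below the other two. Of 34 nuclear subunits of the respiratory chain 2 were 2-fold lower, near the 6.63% of all genes, and 0 also without COM-6. Without overlap at any size, 25 of the 34 were lower, against 44.5% of all genes. Without COM-6 their median relative to all genes was -0.03. The 13 mitochondrially encoded genes had 0 members in either set, and 4 were higher without overlap at any size, against 9.67% of all genes. COM-6 stood apart here as well. These genes summed to 44206 FPKM in COM-6 and to 19223 to 21877 FPKM in the other COM samples. The sum was at most 33697 FPKM in NC and 26039 FPKM in COM+Met.

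Stress and iron genes included Hmox1, heme oxygenase, with 359.6, 333 and 337 FPKM in COM-1 to COM-3 and 1299.8, 1148 and 860.0 FPKM in COM-4 to COM-6, and Nqo1, a quinone reductase under Nrf2, with 129.6, 133 and 141 against 32.6, 38.3 and 24.3 FPKM. These Nrf2 targets thus differed in opposite directions, and of 22 genes of that list 1 was higher and 2 lower, also without COM-6, with 2.80% of all genes higher and 6.63% lower for comparison. Atf3, a stress transcription factor, measured 33.9, 29.1 and 28.2 against 193, 168 and 108 FPKM, and the transferrin receptor gene Tfrc 47.9, 47.7 and 49.3 against 17.7, 19 and 19.7 FPKM. Among complement and Fc receptor genes, 3 of 18 were higher and 3 lower (3 and 2 also without COM-6, against the same shares of all genes), with C3ar1, the C3a receptor, at 7.99, 7.84 and 6.69 against 34.7, 30.8 and 47.9 FPKM and Fcgr4, an activating IgG receptor, at 21.8, 21.2 and 19.2 against 90.8, 87.1 and 65.7 FPKM. Of 16 inflammasome and cell death genes 5 were higher, against 2.80% of all genes, and 0 lower (3 and 0 also without COM-6), and Casp1 measured 54.8, 59 and 50.7 against 135, 135 and 184 FPKM. Apoe, the lipid carrier, measured 23, 16 and 15.1 against 119, 86.9 and 29.9 FPKM, with COM+Met between 78 and 558 FPKM.

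**Figure D5:**
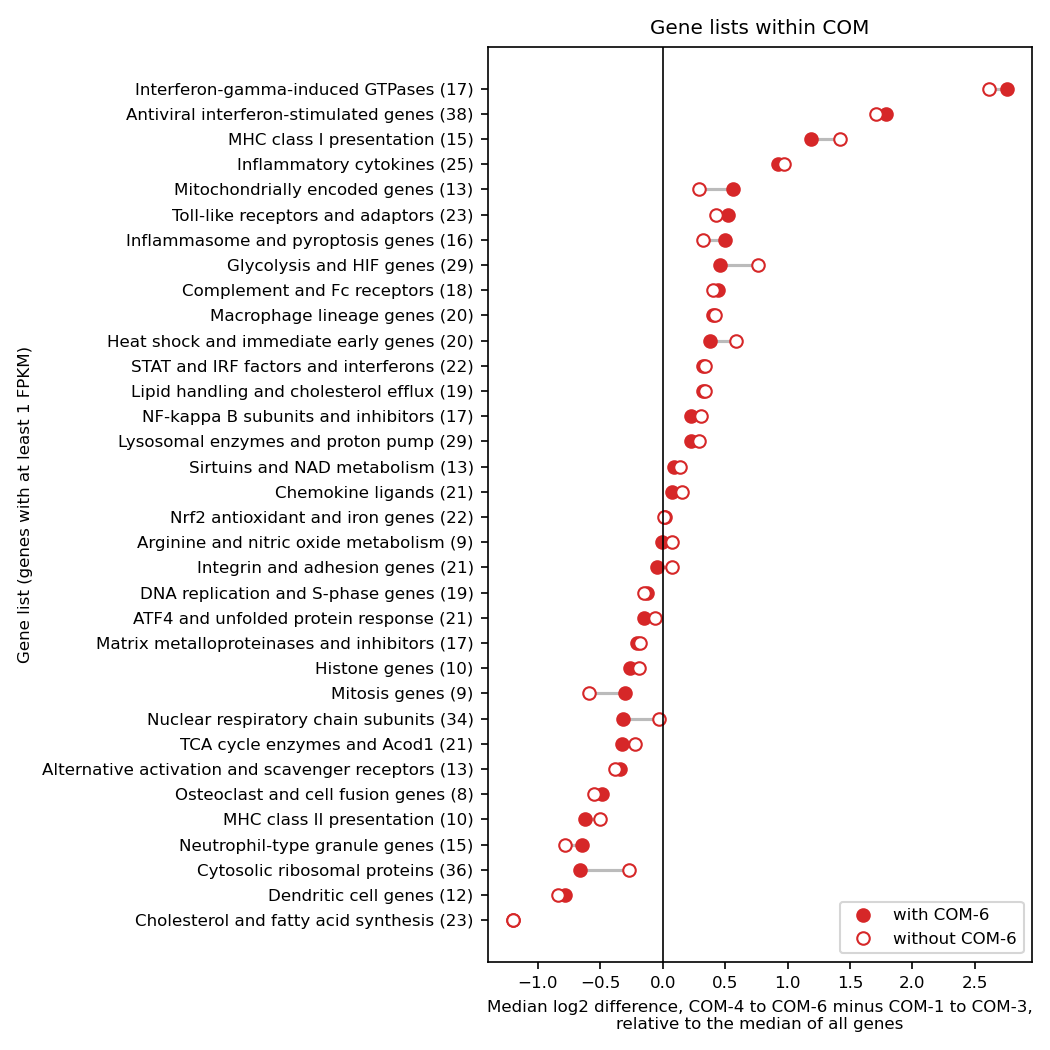
Median log2 difference of COM-4 to COM-6 minus COM-1 to COM-3 in the larger gene lists, relative to the median of all genes, with COM-6 (filled) and without it (open), and the number of genes described in parentheses. Lists of cell markers and the smallest lists, such as chemokine receptors (6 genes described), are not shown. IFN-γ-induced GTPases (2.76 and 2.61) and antiviral genes (1.79 and 1.71) lie highest and cholesterol and fatty acid synthesis (-1.20) lowest, while ribosomal proteins go from -0.66 to -0.27 without COM-6.

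Macrophage markers were present in all COM samples. The 8 markers summed to 11157 to 11572 FPKM in COM-1 to COM-3 and 10601 to 14295 FPKM in COM-4 to COM-6, and 1 of 8, the Fc receptor gene Fcgr1, was in a set, with 46.6, 47.1 and 48 against 149, 136 and 75.4 FPKM. Lyz2, which encodes lysozyme, measured 8988, 8839 and 8531 against 11658, 10306 and 8783 FPKM. Markers of other cells differed. For comparison, 2.80% of all genes were higher and 6.63% lower. The 6 dendritic cell markers summed to 353 to 383 FPKM in COM-1 to COM-3 and 111 to 123 FPKM in COM-4 to COM-6, with 3 of 4 described lower, Cd209a at 0 and Ccr7, a lymph node homing receptor, at 195, 214 and 199 against 61.5, 64.6 and 61.2 FPKM. In a wider list of dendritic cell genes, 6 of 12 described were lower and 2 higher, also without COM-6. The 2 were the costimulatory genes Cd86, with 11.1, 11.4 and 9.48 against 31.9, 28.4 and 43.1 FPKM, and Cd40, for which COM-6 lay close to COM-3.

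The 12 neutrophil markers summed to 528 to 561 FPKM in COM-1 to COM-3 and 187 to 245 FPKM in COM-4 to COM-6, with 3 of 6 described lower, and Elane, Mpo, Retnlg and Ly6g at 0 in all 6 samples. The 10 stromal markers summed to 25.5 to 80.2 and 9.11 to 29.5 FPKM, with 2 of 6 lower (1 also without COM-6). Over all genes 6.63% were lower. The 16 tubular epithelial markers summed to at most 1.37 FPKM and 8 of them were at 0, and lymphoid, mast cell and erythroid markers summed to at most 1.41, 1.41 and 1.32 FPKM. In bulk samples fewer cells of a type and less RNA per cell cannot be told apart, and the part of these cells in the differences was not tested. The Y-linked gene Ddx3y measured 13.9, 13.6 and 15 against 12.9, 12.6 and 17.1 FPKM and did not separate the sets, nor did Kdm5d and Uty. Eif2s3y, also Y-linked, separated them without overlap and below 2-fold, with 38.6, 36.6 and 36 against 24, 24.2 and 35 FPKM, and NC lay at 39.2 to 45.8 and COM+Met at 20.3 to 25.1 FPKM.

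The genes of both sets were then placed against the other groups. Only the nearness of COM+Met was also counted over all genes described, so the other positions describe these sets alone. Of the 292 higher genes, 237 had a mean in NC below both sets, 49 between them and 6 above both (215, 44 and 5 of the 264). COM+Met lay between the sets in 242 of the 292, beyond COM-4 to COM-6 in 32, and was nearer to COM-4 to COM-6 in 212 (72.6%). For the 264 these numbers were 217, 31 and 199 (75.4%). Of the 693 lower genes, 388 had a mean in NC above both sets, 234 between and 71 below both (196, 146 and 53 of the 395). COM+Met was nearer to COM-4 to COM-6 in 507 of them (73.2%), and in 346 of 395 (87.6%), against 53.0% of all genes described.

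A comparison without any COM sample gave the direction of these genes independently of how the sets were chosen. Between COM+Met and NC, limma called 611 genes higher (5.66% of 10786 tested) and 1467 lower (13.6%). Of the 292 higher genes 260 could be tested and 32 were below the filter. Among the 260, 205 were called higher in COM+Met (78.8%) and 5 lower. Some of the 205, such as Iigp1 and Gbp11, passed the filter only through COM+Met and could not be called lower. Of the 693 lower genes 660 could be tested, 349 were called lower (52.9%) and 19 higher. Some of the 349, such as Gpr155 and Abcg4, passed the filter only through NC and could not be called higher. The numbers for the sets that hold also without COM-6 were 192 of 237 higher (81.0%) and 231 of 364 lower (63.5%).

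Cmpk2 rose by 5.38 (SE 0.32, adjusted p = 7e-09) in this limma comparison and Ifi44 by 5.87 (SE 0.069, adjusted p = 1.1e-14) on the log2 scale. Cd74 fell by 1.44 (adjusted p = 0.0363), while H2-Ab1 missed the threshold (adjusted p = 0.0773).

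The replicate numbers alone did not separate samples in COM+Met. Between COM+Met-4 to COM+Met-6 and COM+Met-1 to COM+Met-3 limma called 0 of 10182 genes (0.00%), with 345 at an unadjusted p below 0.05 and a lowest adjusted p of 0.99. Of the 292 and 693 genes, 275 and 591 were tested there, with a median log2 difference of 0.02 in both. In NC, limma called 2 of 10923 genes between NC-4 to NC-6 and NC-1 to NC-3 (0.0183%), Cav1 and Ctla2b, both lower, with 3376 at an unadjusted p below 0.05. Of the 292 genes 203 were tested there, with a median log2 difference of -0.50, against 0.04 over all genes tested, and 105 at an unadjusted p below 0.05. Of the 693 genes 664 were tested, with a median of -0.04 and 290 at an unadjusted p below 0.05. Leaving out NC-4 raised that count to 758, and NC-5 and NC-6 stood apart from NC-1 to NC-4 (r of 0.944 to 0.967 across). For Nos2 NC-5 and NC-6 measured 0.210 and 0.0442 FPKM and the other NC samples 2.54, 3.55, 2.34 and 1.95 FPKM.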

How the data were processed

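RNA of macrophages grown from bone marrow was sequenced in 18 samples (NC, COM and COM+Met, 6 of each), and groups and replicate numbers were taken from the titles. The authors deposited FPKM values per gene and sample, that is, fragments scaled to gene length and sample total, with replicates kept apart. TruSeq libraries were made from total RNA. Bowtie 0.12.2, mm8 and mm9 appear in the submitters' processing notes with no role stated. For the quantifier, its annotation and the strand setting nothing is given in the sources used here. All 18 sample columns were used and 0 were left out. FPKM hold no depth, so no counting interval is given.

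The 2 sets of COM samples, the gene lists and the rules were chosen with earlier results of these data known. Values were transformed to log2(FPKM + 1), which understates the change of low genes. Only genes whose mean over the samples in question reached 1 FPKM were used. COM-4 to COM-6 were described against COM-1 to COM-3 by the difference of means, counted at 2-fold or more without overlap. COM+Met against NC, and replicates 4 to 6 against 1 to 3 within COM+Met and within NC, were tested with limma 3.58.1 (lmFit, eBayes with trend) in R 4.3.3, called at a Benjamini-Hochberg adjusted p below 0.05 and 2-fold, and limma gave every adjusted p in the text. The procedure was tested on simulated data.

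Named genes were the 12 largest differences in each direction among genes with an Ensembl identifier and a symbol that is not a predicted gene model, without overlap and 2-fold also without COM-6, up to 5 per gene list by size among those 2-fold apart (otherwise the 2 with the highest mean), 8 genes of the study's question, Y-linked and substrain genes, and the genes at each limit. A few genes that this rule names are not reported here. Other list and cluster members were named after their values had been seen. Positions, GC content and length came from GENCODE M21 on GRCm38 by Ensembl identifier (GC content for 9988 of 10447 genes, 95.6%), and promoters from RefSeq on GRCm38.p6 by symbol, the first entry of a symbol, matching 8000 genes. Results were also computed with a pseudocount of 0.1 or 5, no filter, a filter of 5 FPKM, TPM, size factors, quantile normalisation, subtraction of a trend on GC content and length fitted per sample (splines with 4 degrees of freedom), each sample left out, limma's sample weights and the replicate number as a block. Size factors without COM-6 were added after the data had been seen. Python 3.11.15 with numpy 2.4.6 and pandas 2.3.3 made the tables, and matplotlib 3.10.9 the plots.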

Additional observations from a re-analysis of the deposited data

Results flagged for a closer look

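Samples far from the other 5 of their group were sought for 23 of the 24 genes with the largest differences, for 8 genes of the study's question and for 2 sample measures, in 96 groups of 6 values, where chance flags about 1 group in 20. By the size of the gap to the nearest sample, 9 were marked. COM+Met-1 was the highest COM+Met sample for Trim30c (46.6 FPKM), Clic5 (27.7 FPKM), Plet1 (8.49 FPKM), Ltc4s (12 FPKM) and Slpi (282 FPKM), and the lowest for Acod1 (1650.0 FPKM). For Arg1, COM+Met-4 was at 0.0438 FPKM and the other 5 COM+Met samples were listed at 0. In COM, COM-6 was the highest for Tlr4 (21.9 FPKM), and its correlation with GC content (r = -0.65) was the lowest of the 6. These values were not weighed further.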

How the results depend on the processing

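All values rest on FPKM of unknown depth, and low genes are the least certain. The count of 292 higher genes ranged from 198 to 353 over pseudocounts, filters, TPM and removal of the GC and length trend (245), and reached 397 with quantile normalisation and 439 with size factors, with or without COM-6. The count of 693 lower genes was 1132 with a pseudocount of 0.1, 245 with a pseudocount of 5, 311 with size factors (280 without COM-6 as well), 326 with quantile normalisation and 561 with the GC and length trend removed. It thus depended on the scaling, the pseudocount and COM-6. With each COM sample left out in turn the counts were 293 to 314 higher and 462 to 1044 lower, 462 without COM-6 and 1044 without COM-4. The differences of 148 named genes kept their sign in every called gene without COM-6, with size factors (with and without COM-6) and with the GC and length trend removed, the settings tried gene by gene. Genes called at 2-fold had little room to change sign. The difference moved by at least the SD within the sets in 88 of the 148 with size factors. It did so in 99 with size factors without COM-6, and in 36 with the trend removed. With size factors 292 of the 292 higher and 315 of the 693 lower genes stayed 2-fold. Without COM-6 as well, 279 of 285 and 267 of 693 did, and 2 lower genes changed sign.

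In COM+Met, replicates 4 to 6 against 1 to 3 gave 0 to 1 called genes when a sample was left out, 1 each without COM+Met-1 and without COM+Met-3. In NC the 2 called genes became 0 with a pseudocount of 5, 1 without a filter and 704 with sample weights, and 0 to 758 with a sample left out (0 without NC-1, NC-3, NC-5 or NC-6, 1 without NC-2 and 758 without NC-4). Of the 1467 genes lower in COM+Met than in NC, the count was 679 with a pseudocount of 5 and 913 with a filter of 5 FPKM, where fewer genes were tested. The replicate block gave 612 higher and 1468 lower genes, and the numbers do not pair the samples (r of same-numbered samples from -0.104 to 0.056, best with its own number in 1 of 6). Other causes were not tested.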
